A study of Rattus norvegicus with 27 samples.

Results

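The 10 genes described here belong to the response to low oxygen and to glycolysis, and were followed in rat hippocampus after brain ischemia: P4ha1, Vegfa, Ankrd37, Slc2a1, Hk1, Hk2, Pfkfb3, Aldoa, Pgk1 and Ldha. A gene was read from the probe set whose single symbol in the platform annotation is that gene, and 9 of the 10 genes had 1 such probe set, among 18166 genes with a single-symbol probe set in all. No probe set carries Hk1 as its single symbol, so Hk1 has no value here. All 9 genes passed the filter on dim genes, which left 12716 genes for testing.

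Transcripts were measured on Affymetrix Rat Gene 2.0 arrays in hippocampal regions CA1 and CA3 of male Long Evans rats. The 8R groups came from rats given 10 min of complete global brain ischemia at normal body temperature, by carotid occlusion with hypotension to a mean arterial pressure of 45 mm Hg, and then 8 h of reperfusion. The NIC groups, non-ischemic controls, came from sham-operated rats. Every array held the pooled CA1 or CA3 of 5 rats, and 20% of a pool's post-mitochondrial supernatant gave its total RNA while the rest was spun over a 20% sucrose pad for polysome RNA, the RNA that pellets with ribosomes. There were 4 arrays each of 8R CA1 total, 8R CA3 total and 8R CA3 polysome RNA, 3 of 8R CA1 polysome RNA (pools 1, 3 and 4), and 3 in each of the 4 NIC groups, 27 in all. The same mass of RNA, 1 ug, was labelled for each array, so a change in the amount of RNA per region is not seen in these values.

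Cells sense oxygen through hypoxia-inducible factors (HIF), transcription factors whose alpha subunit is hydroxylated and destroyed while oxygen is plentiful. When oxygen falls, HIF binds short DNA elements with the core ACGTG or GCGTG and raises genes for glucose uptake, glycolysis, blood vessel growth and collagen modification. Several of the 10 genes are classical HIF targets. In the brain, astrocytes and neurons divide the handling of glucose and lactate between them, and the pyramidal neurons of CA1 are a classical case of delayed death after such ischemia, more vulnerable than those of CA3.

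The sequence before an annotated transcript start is shown for the 6 genes that the comparisons below turn on, because the core ACGTG is unevenly spread over them. Each is the 250 bases upstream of the start, 5' to 3' on the gene's strand, from RefSeq on the rat build GRCr8, and capitals mark ACGTG or its reverse complement CACGT. The windows are chr20:27844796-27845045 for P4ha1, chr9:22452604-22452853 for Vegfa, chr16:53001257-53001506 for Ankrd37, chr5:138002272-138002521 for Slc2a1, chr17:71944683-71944932 for Pfkfb3 and chr1:106507842-106508091 for Ldha, all on the plus strand.
P4ha1: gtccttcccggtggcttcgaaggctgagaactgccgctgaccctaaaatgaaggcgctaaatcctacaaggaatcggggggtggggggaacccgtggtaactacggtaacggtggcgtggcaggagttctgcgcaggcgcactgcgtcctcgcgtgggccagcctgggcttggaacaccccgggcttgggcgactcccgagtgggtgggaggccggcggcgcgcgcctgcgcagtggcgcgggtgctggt
Vegfa: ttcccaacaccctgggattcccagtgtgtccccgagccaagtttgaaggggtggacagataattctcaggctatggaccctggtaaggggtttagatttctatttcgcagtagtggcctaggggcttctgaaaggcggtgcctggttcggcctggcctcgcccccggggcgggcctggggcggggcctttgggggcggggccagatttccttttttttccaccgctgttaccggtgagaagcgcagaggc
Ankrd37: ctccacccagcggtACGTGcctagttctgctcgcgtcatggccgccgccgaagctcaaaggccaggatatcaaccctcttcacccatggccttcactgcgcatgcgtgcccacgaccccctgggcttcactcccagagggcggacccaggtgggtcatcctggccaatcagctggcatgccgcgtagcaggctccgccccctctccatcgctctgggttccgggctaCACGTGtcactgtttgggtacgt
Slc2a1: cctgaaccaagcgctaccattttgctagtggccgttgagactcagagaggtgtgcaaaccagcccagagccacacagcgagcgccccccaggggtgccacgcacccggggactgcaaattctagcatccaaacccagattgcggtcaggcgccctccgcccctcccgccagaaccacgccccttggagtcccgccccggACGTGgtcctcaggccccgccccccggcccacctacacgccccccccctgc
Pfkfb3: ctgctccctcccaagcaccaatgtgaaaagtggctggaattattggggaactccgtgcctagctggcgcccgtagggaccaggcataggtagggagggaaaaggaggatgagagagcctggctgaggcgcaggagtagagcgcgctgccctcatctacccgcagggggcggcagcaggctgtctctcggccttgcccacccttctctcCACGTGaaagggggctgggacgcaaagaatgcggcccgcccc
Ldha: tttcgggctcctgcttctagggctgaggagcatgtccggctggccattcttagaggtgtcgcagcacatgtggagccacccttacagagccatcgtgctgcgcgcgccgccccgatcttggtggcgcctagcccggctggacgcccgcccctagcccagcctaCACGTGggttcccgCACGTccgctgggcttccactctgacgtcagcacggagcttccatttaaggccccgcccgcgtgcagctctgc

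Within the Ldha window CACGTG began 87 bases before the start and CACGT 73 bases before it. The Ankrd37 window held ACGTG at 236 bases and CACGTG at 23 bases, the Pfkfb3 window CACGTG at 42 bases, and the Slc2a1 window ACGTG at 51 bases. The P4ha1 and Vegfa windows held none, while GCGTG or its reverse complement CACGC occurred 2 times in the P4ha1 window, 3 times in that of Slc2a1, 1 time each in those of Ldha and Ankrd37, and not in those of Vegfa and Pfkfb3. On either strand GCGTG was in 25.9% of all windows. RefSeq gave 13 windows for 9 of the 10 genes, with no window used for Pgk1. On either strand ACGTG was in 6 of these 13 windows, 1 each of 6 genes, against 16.6% of 33469 such windows over the genome. CACGTG holds both ACGTG and CACGT and was counted once as a stretch. A match is a match of letters in this window, not a measured binding site. The P4ha1 and Pfkfb3 windows lie inside the spans of their genes (chr20:27784696-27895785 and chr17:71893320-71974526). Each stands before an annotated start within the gene, and the sequence before the first base of these genes was not examined.

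Before the results, 2 features of the arrays bear on them. The spread between arrays of a group was wider in 8R, where the median SD of a gene was 0.149 to 0.173 log2, than in NIC, where it was 0.0985 to 0.109 log2. The 8R arrays of pool 4 stood apart: of the 8R arrays in a group, pool 4 was lowest for Ldha and Pgk1 and highest for Vegfa and Ankrd37 in all 4 groups. Array medians ran from 25.6 to 38.1, and the number of arrays limits the precision. Values without pool 4 are given beside the results they bear on. The labelled regions were borne out in part by their markers: among NIC arrays of total RNA, 3 of 5 tested CA1 markers were higher in CA1 than in CA3, with Wfs1 at a log2 difference of 1.64, and 2 of 5 tested CA3 markers were lower. The CA1 markers had a summed intensity of 1269 to 1489 in NIC CA1 total RNA, against 579 to 693 in NIC CA3 total RNA, so they were present in both regions. Of 3 tested dentate granule markers, Prox1 was higher in NIC CA1 total RNA (0.73 log2, adjusted p = 0.027), and C1ql2 and Glp1r were not called. The dentate list sums were 226 to 290.5 in NIC CA1 and 179 to 192 in NIC CA3 total RNA. Whether dentate tissue entered the CA1 pools was not tested.

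P4ha1 and Vegfa showed the largest rises among the 9 genes, in CA1 and in CA3 total RNA. P4ha1 (chr20:27784696-27895785) encodes the catalytic subunit of prolyl 4-hydroxylase, which modifies collagen. Its intensity in CA1 total RNA was 147, 112, 121 and 197 in 8R pools 1 to 4, against 37.3, 38.8 and 38.2 in NIC pools 1 to 3. Every 8R array lay above every NIC array, and the change was 1.54 ± 0.15 on the log2 scale (SE), a 2.91-fold rise (limma adjusted p = 1.07e-08), ranked 31 of the 12716 genes tested. The CA1 polysome values were 107, 119 and 146 in 8R, against 69.7, 54.0 and 73.0 in NIC. The groups again did not overlap, with a change of 0.78 ± 0.16 log2 (adjusted p = 0.00207).

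P4ha1 in CA3 total RNA was at 123, 97.6, 80.5 and 104 in 8R, against 41.0, 41.3 and 46.7 in NIC, a change of 0.98 ± 0.15 log2 (adjusted p = 4.36e-05). The CA3 polysome values were 58.3, 74.3, 55.7 and 84.2 in 8R, against 35.1, 48.0 and 44.4 in NIC. The groups did not overlap there either, but the difference of 0.52 ± 0.15 log2 missed the threshold (adjusted p = 0.0527). Without 8R pool 3 that difference passed (0.59 log2, adjusted p = 0.037). The P4ha1 changes without 8R pool 4 were 1.39, 0.67, 0.97 and 0.43 log2 in CA1 total, CA1 polysome, CA3 total and CA3 polysome RNA.

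Vegfa (chr9:22452854-22468194), which encodes the angiogenic growth factor VEGF-A, was at 141, 116, 132 and 178 in 8R CA1 total RNA, against 59.9, 65.4 and 72.2 in NIC. The rise of 0.93 ± 0.12 log2, or 1.91-fold, was past the threshold (adjusted p = 1.45e-06), with no overlap of arrays. Its CA1 polysome values were 150, 141 and 178 in 8R, against 66.0, 70.0 and 73.7 in NIC. There the rise was 1.00 ± 0.13 log2, or 2.00-fold (adjusted p = 1.19e-05), and ranked 60 of the genes tested. The Vegfa change was thus close to 1 log2 unit in both CA1 fractions, while that of P4ha1 was smaller in polysome than in total RNA, a difference tested further on.

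In CA3 total RNA Vegfa was at 115, 104, 90.8 and 126 in 8R, against 65.8, 53.1 and 66.1 in NIC, a rise of 0.68 ± 0.12 log2 (adjusted p = 0.000297). Its CA3 polysome values were 73.7, 87.7, 80.8 and 107 in 8R, against 61.3, 66.1 and 64.8 in NIC. All 4 of those 8R arrays lay above the 3 NIC arrays, and the difference of 0.36 ± 0.12 log2 did not pass (adjusted p = 0.101).

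Ankrd37 (chr16:53001487-53004545), an ankyrin repeat gene known as a HIF target in cultured cells, did not pass the test in any region or fraction. Its intensities ran from 21.4 to 44.6 over all 27 arrays. The group means, 5.40 to 5.78 on the log2 scale, lay close to the filter's cutoff of 5.39, and with the pseudocount changes of dim genes come out too small. The CA1 total values were 25.6, 26.0, 36.4 and 44.6 in 8R, against 40.02, 36.4 and 40.5 in NIC, and the 2 groups overlapped. The log2 differences were -0.18 and -0.20 in CA1 and CA3 total RNA and 0.10 and 0.19 in CA1 and CA3 polysome RNA (adjusted p from 0.277 to 0.691). The CA1 polysome difference was 0.046 without 8R pool 4. Leaving out 8R pool 4 gave -0.28 log2 in CA1 total RNA, past the threshold (adjusted p = 0.0463).

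Slc2a1 (chr5:138002522-138030742) encodes GLUT1, the glucose transporter of the blood-brain barrier and of astrocytes. The CA1 total values were 93.7, 111, 122 and 109.6 in 8R, against 78.7, 82.3 and 82.0 in NIC, a rise of 0.36 ± 0.11 log2 without overlap (adjusted p = 0.0164). That call was lost without NIC pool 1 (adjusted p = 0.057), without 8R pool 3 (0.0532) and after quantile normalization (0.113). CA3 polysome values were 75.9, 80.9, 76.3 and 81.3 in 8R, against 57.1, 63.1 and 44.1 in NIC. The rise there was 0.43 ± 0.11 log2 (adjusted p = 0.0372), and leaving out any 1 of NIC pools 1 and 3 or 8R pools 1, 2 and 4 ended the call (adjusted p from 0.0553 to 0.244). So did a pseudocount of 64 (0.0677), quantile normalization (0.101), median centring (0.117) and a fit of the 2 groups alone (0.0831).

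Slc2a1 in the other comparisons differed by 0.21 ± 0.12 log2 in CA1 polysome RNA (adjusted p = 0.319) and by 0.27 ± 0.11 log2 in CA3 total RNA (adjusted p = 0.112). Its 8R arrays of CA1 polysome RNA were at 90.4, 126 and 138, against 93.7, 105 and 97.7 in NIC, so 1 of the 8R arrays lay below all NIC arrays. In CA3 total RNA the 8R arrays were at 92.3, 79.3, 98.3 and 83.5, all above the NIC arrays at 62.0, 74.1 and 76.5. The CA3 total difference passed narrowly without 8R pool 4 (0.29 log2, adjusted p = 0.0496), and the CA1 polysome difference was then 0.10 log2.

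Hk2 (chr4:116792258-116841275) encodes hexokinase 2, the inducible enzyme that phosphorylates glucose on entry to glycolysis. It did not pass in any comparison of 8R with NIC. In total RNA of CA1 it was at 78.7, 89.3, 81.1 and 79.8 in 8R, against 75.05, 82.0 and 78.8 in NIC. The log2 differences were 0.054 ± 0.09 in CA1 total and 0.061 ± 0.09 in CA3 total RNA, and their signs turned after quantile normalization (-0.072 and -0.071). In polysome RNA the differences were 0.21 ± 0.09 in CA1 and 0.20 ± 0.09 log2 in CA3 (adjusted p = 0.153 and 0.203), so none of the 4 passed. In CA1 polysome RNA the 8R arrays, at 114, 104 and 112, nevertheless all lay above the NIC arrays, at 103, 83.2 and 92.6.

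Pfkfb3 (chr17:71893320-71974526) makes fructose 2,6-bisphosphate, the metabolite that stimulates phosphofructokinase and so sets the pace of glycolysis. The CA1 total values were 178, 149.6, 143 and 159 in 8R, against 108, 119.7 and 111 in NIC, a rise of 0.42 ± 0.09 log2 (adjusted p = 0.000512). In CA3 total RNA it was at 181, 190.2, 172 and 182 in 8R, against 107, 118 and 118 in NIC, a rise of 0.60 ± 0.09 log2 (adjusted p = 2.88e-05). Both calls held under all 20 alternative settings run for each of them.

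Pfkfb3 also separated the groups in polysome RNA, by smaller amounts. In CA1 it was at 222, 222 and 234 in 8R, against 184, 169 and 189.6 in NIC, with a rise of 0.30 ± 0.09 log2 (adjusted p = 0.0429). That call was lost when all arrays of 8R pool 4 were left out (adjusted p = 0.0667), and when any 1 CA1 polysome array of NIC pools 1, 2 and 3 or 8R pools 1 and 4 was left out (0.0669 to 0.168). Its CA3 polysome values were 229.5, 230.2, 201 and 248 in 8R, against 179.6, 184 and 179 in NIC, where the difference of 0.30 ± 0.09 log2 missed the threshold (adjusted p = 0.0589) and passed without 8R pool 3 (0.35 log2, adjusted p = 0.0329).

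Aldoa (chr1:190832820-190838021) encodes aldolase A, which splits the 6-carbon sugar of glycolysis. An annotated pseudogene, Aldoa-ps7, has its own probe set, and cross-hybridization between them was not tested. In CA1 total RNA Aldoa was at 1146, 1067, 1201 and 1097 in 8R, against 1117, 1006 and 1106 in NIC, overlapping groups that differed by 0.067 ± 0.08 log2 (adjusted p = 0.597). Its CA1 polysome values were 1135, 1296 and 1319 in 8R, all below the NIC values of 1556, 1369 and 1464, with a difference of -0.23 ± 0.09 log2 (adjusted p = 0.12). In CA3 it differed by 0.16 ± 0.08 log2 in total and by 0.055 ± 0.08 log2 in polysome RNA (adjusted p = 0.211 and 0.757). Without 8R pool 4 the differences in CA1 polysome RNA (-0.27 log2, adjusted p = 0.0446) and CA3 total RNA (0.20 log2, adjusted p = 0.0364) passed, and that in CA3 polysome RNA was 0.11 log2.

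Pgk1 (chrX:75336988-75352962) encodes phosphoglycerate kinase 1, which forms ATP in the later steps of glycolysis. Its CA1 total values were 660.1, 661, 604 and 465 in 8R, against 459.9, 432 and 432 in NIC, a rise of 0.41 ± 0.14 log2 (adjusted p = 0.0251). In CA3 total RNA it was at 751, 743, 759 and 577 in 8R, against 477, 533 and 545 in NIC, a rise of 0.43 ± 0.14 log2 (adjusted p = 0.0303). All 8R arrays lay above all NIC arrays in both regions, with pool 4 the lowest 8R array by a wide margin. Without pool 4 the 2 rises were each 0.52 log2 (adjusted p = 2.44e-06 in CA1 and 6.17e-06 in CA3). With it, the CA1 call was lost when any 1 of NIC pools 2 and 3 or 8R pools 1 and 2 was left out (adjusted p from 0.0739 to 0.0849). The CA3 call was lost without any 1 of NIC pools 1, 2 and 3 or 8R pools 1, 2 and 3 (0.0542 to 0.126). Quantile normalization (0.0601 and 0.0758) and median centring (0.0644 and 0.0983) also ended both calls.

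The rise of Pgk1 in total RNA had no counterpart in polysome RNA. Its CA1 polysome values were 852, 818 and 547 in 8R, against 767, 843 and 904 in NIC, and differed by -0.20 ± 0.15 log2 (adjusted p = 0.443). The CA3 polysome values were 879.5, 910.1, 843 and 641 in 8R, against 819, 889 and 793 in NIC, and differed by -0.037 ± 0.14 log2 (adjusted p = 0.909). The 8R and NIC arrays overlapped in both. Without 8R pool 4 the 2 differences were -0.0015 and 0.074 log2, so the sign in CA3 turned; it also turned without NIC pool 2 (0.0095 log2).

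Ldha (chr1:106508092-106517512), which fell in CA1 in both fractions, encodes the A subunit of lactate dehydrogenase, which interconverts pyruvate and lactate. Its CA1 total values were 161, 159.6, 182 and 125 in 8R, all below the 267, 227 and 217 in NIC, a change of -0.56 ± 0.11 log2 (adjusted p = 0.000412). The CA1 polysome values were 201, 245 and 176 in 8R, against 356, 347 and 339 in NIC, a change of -0.71 ± 0.12 log2 (adjusted p = 0.000298). That change ranked 54 from the lowest of the 12716 genes tested. The CA1 changes without 8R pool 4 were -0.46 and -0.61 log2 in total and polysome RNA, both still past the threshold (adjusted p = 0.000157 and 0.000205).

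Ldha in CA3 total RNA was at 227, 239, 199 and 196 in 8R, against 215, 245 and 233 in NIC, which overlapped, with a difference of -0.10 ± 0.11 log2 (adjusted p = 0.609), or -0.057 log2 without 8R pool 4. In CA3 polysome RNA it was at 234, 257, 254 and 211 in 8R, all below the NIC arrays at 297, 302 and 299.9. That difference was -0.31 ± 0.11 log2 and missed the threshold (adjusted p = 0.124).

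**Figure D1:**
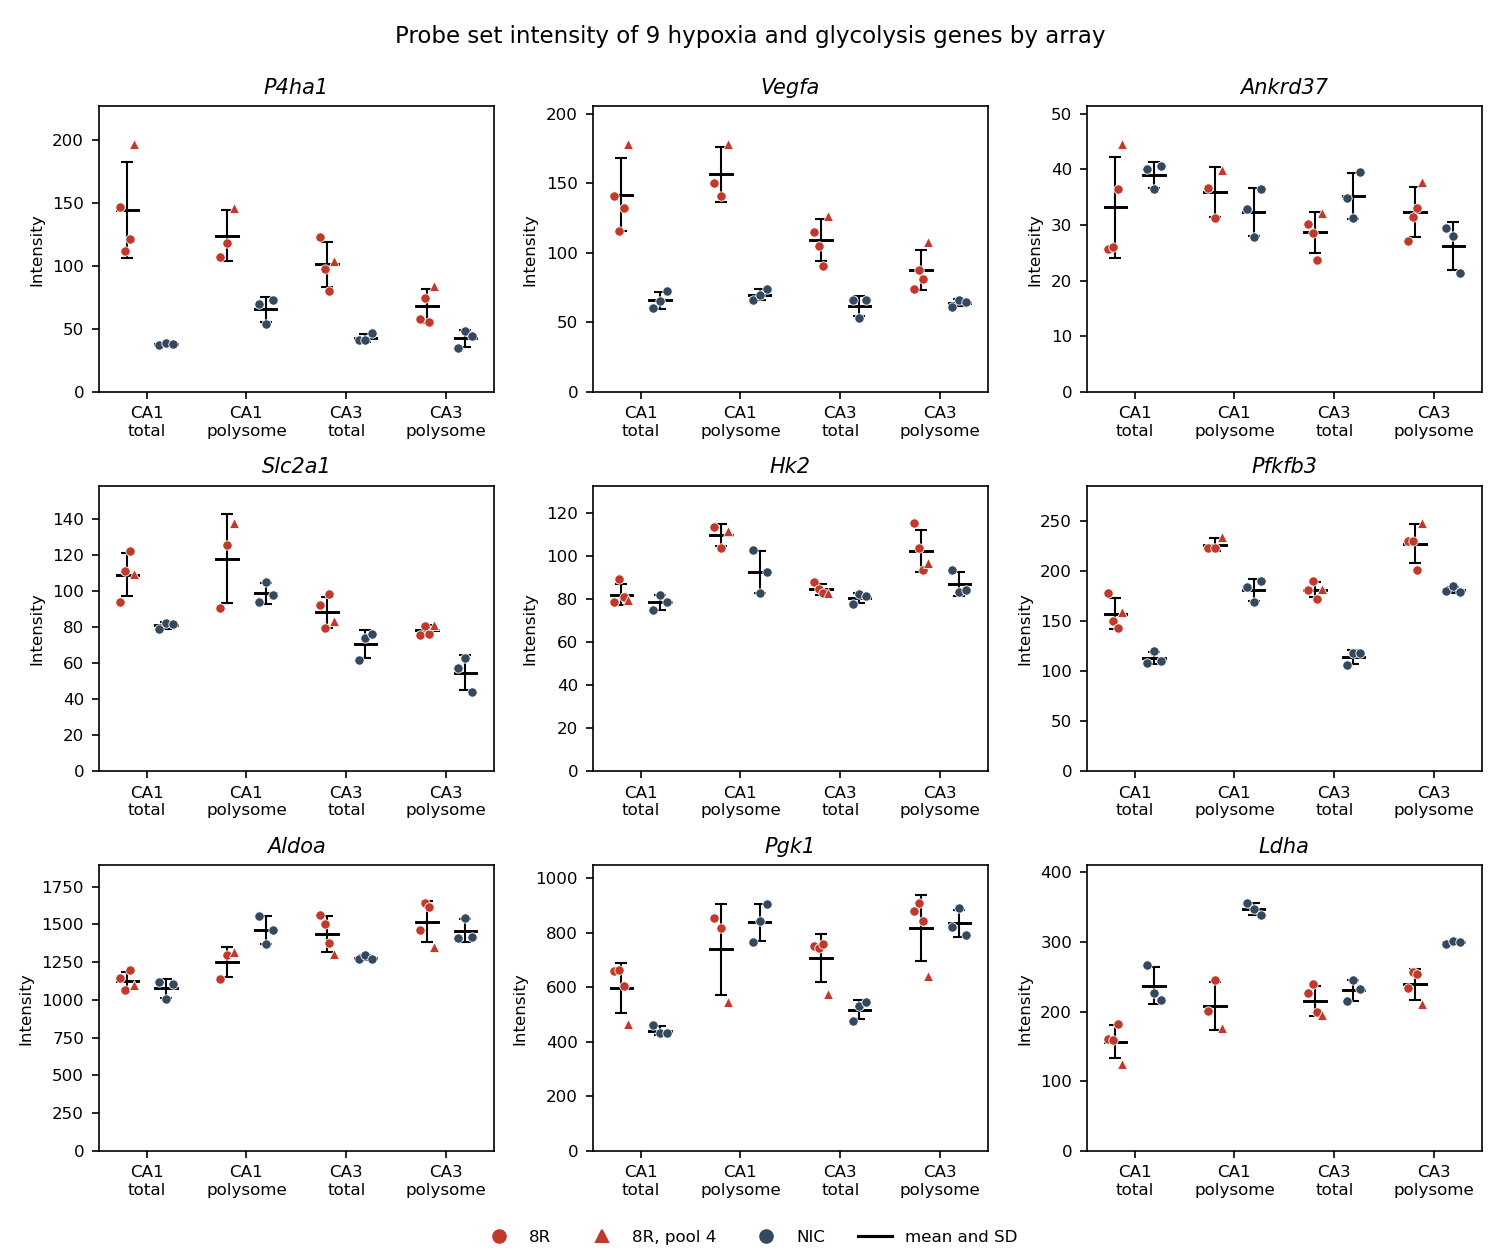
Probe set intensity (linear scale) of the 9 genes on each array, in CA1 and CA3 total and polysome RNA, with 8R in red left of NIC in blue. Bars show mean and SD, triangles are the 8R arrays of pool 4. P4ha1 in CA1 total RNA lies between 112 and 197 in 8R, all above NIC, and Ldha in CA1 polysome RNA lies between 176 and 245 in 8R, all below NIC.

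Counted over the 9 genes, 5 rose and 1 fell in CA1 total RNA, where 26.3% of all genes tested were called (20.1% higher and 6.15% lower). CA1 polysome RNA had 3 that rose and 1 that fell, against 8.33% of all genes called (4.87% higher and 3.46% lower). CA3 total RNA had 4 that rose and none that fell, against 15.5% (14.2% higher and 1.34% lower). CA3 polysome RNA had 1 that rose, against 2.66% (2.38% higher and 0.275% lower). Without 8R pool 4, 7 of 9 were called in CA1 total, 4 in CA1 polysome, 6 in CA3 total and 1 in CA3 polysome RNA, against 37.4%, 8.86%, 34.3% and 3.64% of all genes. All arrays of 8R lay on 1 side of all arrays of NIC for 6 of the 9 genes in CA1 total RNA (34.6% of all genes tested), 6 in CA1 polysome RNA (24.2%), 7 in CA3 total RNA (24.6%) and 6 in CA3 polysome RNA (17.7%). The median log2 difference of the 9 genes was 0.36, 0.21, 0.27 and 0.20 in these 4 comparisons in the same order, beside 0.04, 0.01, 0.09 and 0.04 over all genes. The genes were chosen with earlier results of these data known, so these counts and medians do not test whether they stand out from all genes. The calls of P4ha1, Vegfa and Pfkfb3 in both regions' total RNA, of P4ha1 and Vegfa in CA1 polysome RNA and of Ldha in both CA1 fractions held under every alternative run, 19 or 20 for each.

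**Figure D2:**
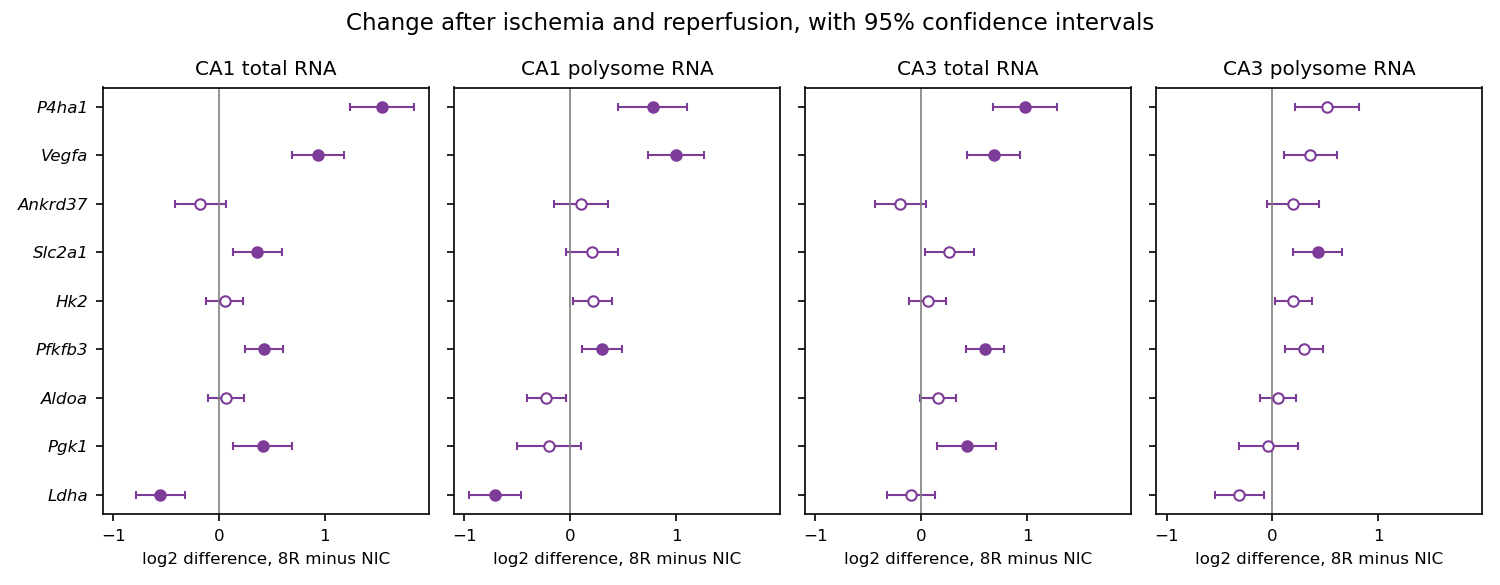
Log2 difference of 8R minus NIC (x axis) with its 95% confidence interval for the 9 genes (rows), in 4 panels by region and RNA fraction. Filled points passed the limma test at an adjusted p under 0.05. P4ha1 and Vegfa are filled in 3 panels, and Ldha is filled, below 0, in the 2 CA1 panels.

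Cell type markers moved in the same arrays. In CA1 total RNA 3 of 5 tested neuron markers fell (Syn1 at -0.65, Rbfox3 at -0.52 and Snap25 at -0.25 log2), and the summed intensity of the neuron list was 5207 to 6392 in 8R, against 7031 to 7441 in NIC. Of 6 tested astrocyte markers 3 rose, with Gfap at 0.96 log2, and their sum was 3333 to 3903 in 8R, against 2533 to 2748 in NIC. Of 3 tested endothelial markers none was called there, with sums of 128 to 175 in 8R and 132 to 159.5 in NIC. In CA3 total RNA 1 endothelial marker rose, Esam (0.29 log2, adjusted p = 0.0487), with list sums of 137 to 166 in 8R and 135 to 162 in NIC. Among CA1 polysome arrays 3 of 5 neuron markers fell (sum 6533 to 7169 in 8R, against 7921 to 8744 in NIC), and 1 of 6 astrocyte markers rose. In CA3 total RNA 1 of 5 neuron markers fell and 2 of 6 astrocyte markers rose, while in CA3 polysome RNA 0 of 5 neuron markers fell and 1 of 6 astrocyte markers rose. Of 5 tested CA1 pyramidal markers, Pou3f1 (-0.61) and Mpped1 (-0.57 log2) fell in CA1 total RNA. Wfs1, Fibcd1 and Htr1b were not called there, and the list sums overlapped (1040 to 1647 in 8R, 1269 to 1489 in NIC). Of 5 tested CA3 pyramidal markers, Cpne4 (-0.58) and St18 (-0.41 log2) fell in CA1 total RNA. Grik4, Bok and Kcnq5 were not called there, and the list sums were 686 to 783 in 8R, against 908 to 942 in NIC. Interneuron markers did not fall with the neuron list. Pvalb rose in CA1 total RNA (0.25 log2, adjusted p = 0.0384), and Gad1 and Pvalb rose in CA3 total RNA (0.31 and 0.33 log2). The other tested interneuron markers were not called in these comparisons. Interneuron sums were 1320 to 1588 in 8R CA1 total RNA, against 1174 to 1349 in NIC. In CA1 polysome RNA they were 1888 to 2144, against 1646 to 1751. Of 4 microglia markers 1 rose in the total RNA of each region. Of 5 tested oligodendrocyte markers 2 rose in CA3 total RNA, Mobp (0.74 log2) and Mbp (0.41 log2), with list sums of 1391 to 1558 in 8R, against 948 to 1165 in NIC. Mobp rose in CA3 polysome (0.58 log2) and CA1 total RNA (0.36 log2) too. No listed marker with a probe set was under an intensity of 1 on all arrays of a group. The part of these shifts in the changes of the 9 genes was not tested, and in bulk tissue fewer cells of a type and less RNA per cell cannot be told apart.

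The next question was whether the 2 regions responded differently. For total RNA the change of P4ha1 was larger in CA1 than in CA3 by 0.56 ± 0.21 log2 (95% interval 0.13 to 0.99, unadjusted p = 0.0119), and that of Ldha lower by 0.46 log2 (-0.46 ± 0.16, interval -0.78 to -0.13, unadjusted p = 0.0074). After adjustment none of the 9 genes passed (adjusted p = 0.843 and 0.793 for these 2), against 0.0236% of all genes called and 5.21% at an unadjusted p under 0.05. In polysome RNA the change of Vegfa was larger in CA1 by 0.64 ± 0.18 log2 (interval 0.28 to 1.01, unadjusted p = 0.00121, adjusted p = 0.681). Ldha (-0.40 ± 0.16) and Aldoa (-0.28 ± 0.12) were also under an unadjusted p of 0.05 there, against 5.56% of all genes, and none of the 9 passed after adjustment, against 0.0157%. The 8R arrays of CA1 and CA3 with 1 pool number deviated together (r of 0.12 to 0.54 in total and 0.46 to 0.78 in polysome RNA), which these fits leave out. The NIC arrays hardly did (r of 0.003 to 0.099 in total and -0.017 to 0.071 in polysome RNA). A block on pool number assumes 0.27 for all arrays, so its p-values rest in part on a correlation that the NIC arrays do not show. With pool number across regions as a block, the unadjusted p was 0.00284 for P4ha1 and 0.0013 for Ldha in total RNA and 0.000129 for Vegfa in polysome RNA, and none of the 9 passed (adjusted p = 0.227, 0.154 and 0.112 for these). The fall of Ldha in CA1 was therefore called in 1 region only, without a called difference between the regions.

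Polysome RNA and total RNA of a pool came from 1 supernatant, so the change of each gene could be compared between fractions. Log2 polysome minus log2 total P4ha1 in CA1 was -0.41, -0.03 and -0.39 in 8R pools 1, 3 and 4, against 0.68, 0.35 and 0.72 in NIC pools 1 to 3. P4ha1 was thus below 0 in every 8R CA1 pool, though barely so in pool 3, and above 0 in every NIC CA1 pool. All genes tested had a median of 0.20 log2 for polysome against total RNA in NIC CA1, so 0 is no fixed reference. The polysome change of P4ha1 was smaller than its total change by 0.76 ± 0.22 log2 (fitted as -0.76, adjusted p = 0.0424), and P4ha1 was the only one of the 9 genes called, against 3.82% of all genes (3.41% lower). With pool as a random block, which uses the shared supernatant, the P4ha1 difference was -0.80 ± 0.17 (adjusted p = 0.00178). That block assumes a correlation of 0.39 for all arrays, while NIC fractions of 1 pool correlated at 0.04 to 0.22 in CA1. Its p-values thus rest in part on a correlation higher than the NIC arrays show. Under that block Pgk1 (-0.59 ± 0.14, adjusted p = 0.00464) and Aldoa (-0.30 ± 0.10, adjusted p = 0.0258) passed too, so that 3 of 9 were called, against 20.8% of all genes. Without the block the P4ha1 call was lost when any 1 of 9 of the 13 CA1 arrays was left out: NIC polysome pools 1 and 3, NIC total pools 1, 2 and 3, 8R polysome pools 1 and 4 and 8R total pools 1 and 4 (adjusted p from 0.0553 to 0.106). It was also lost with a pseudocount of 64 (0.0667), no filter (0.0576), quantile normalization (0.0513) and the 4 CA1 groups alone (0.0591).

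Pgk1 showed the same direction in both regions. Its log2 polysome minus log2 total was 0.36, 0.43 and 0.23 in 8R CA1 pools 1, 3 and 4, against 0.72, 0.94 and 1.04 in NIC CA1. In CA3 it was 0.22, 0.29, 0.15 and 0.15 in 8R, against 0.76, 0.72 and 0.53 in NIC, so the pools did not overlap in either region. That is not particular to Pgk1: P4ha1 and Aldoa in CA1 and P4ha1, Vegfa, Pfkfb3 and Ankrd37 in CA3 did not overlap either. The share of all genes without such overlap was not examined. Without the block these differences missed the threshold (-0.61 ± 0.20 in CA1, adjusted p = 0.0764, and -0.47 ± 0.19 in CA3, adjusted p = 0.181). In CA1 leaving out polysome pool 1, polysome pool 3 or total pool 4 of 8R brought Pgk1 past it (adjusted p = 0.0463, 0.041 and 0.0293). Without pool 4 altogether both passed (-0.53 and -0.45 log2, adjusted p = 0.00476 and 0.0112).

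In CA3 none of the 9 genes was called without the block, against 0.165% of all genes. At an unadjusted p under 0.05 there were 4, P4ha1, Ankrd37, Pgk1 and Pfkfb3, against 20.6% of all genes. With the pool block 4 were, against 17.2%: Pgk1 (-0.47 ± 0.14, adjusted p = 0.0211), P4ha1 (-0.46 ± 0.16, 0.0469) and Pfkfb3 (-0.30 ± 0.10, 0.0385) changed less in polysome than in total RNA, and Ankrd37 (0.39 ± 0.14, 0.0484) the other way. NIC CA3 fractions of 1 pool correlated at -0.04 to 0.03, below the 0.39 that this block assumes. Without 8R pool 4 and without the block, P4ha1 also passed (-0.54, adjusted p = 0.0494). P4ha1 in 8R CA3 was at -0.90, -0.33, -0.43 and -0.26 log2 polysome minus total, against -0.16, 0.16 and -0.05 in NIC CA3. For Vegfa the difference between fractions was 0.065 ± 0.18 log2 in CA1 and -0.33 ± 0.17 in CA3 (adjusted p = 0.852 and 0.276). The difference of these differences between CA1 and CA3 was called for none of the 9 genes, nor for any gene tested (limma, 0% called). At an unadjusted p under 0.05 it was 0 of the 9 genes, against 1.95% of all genes.

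**Figure D3:**
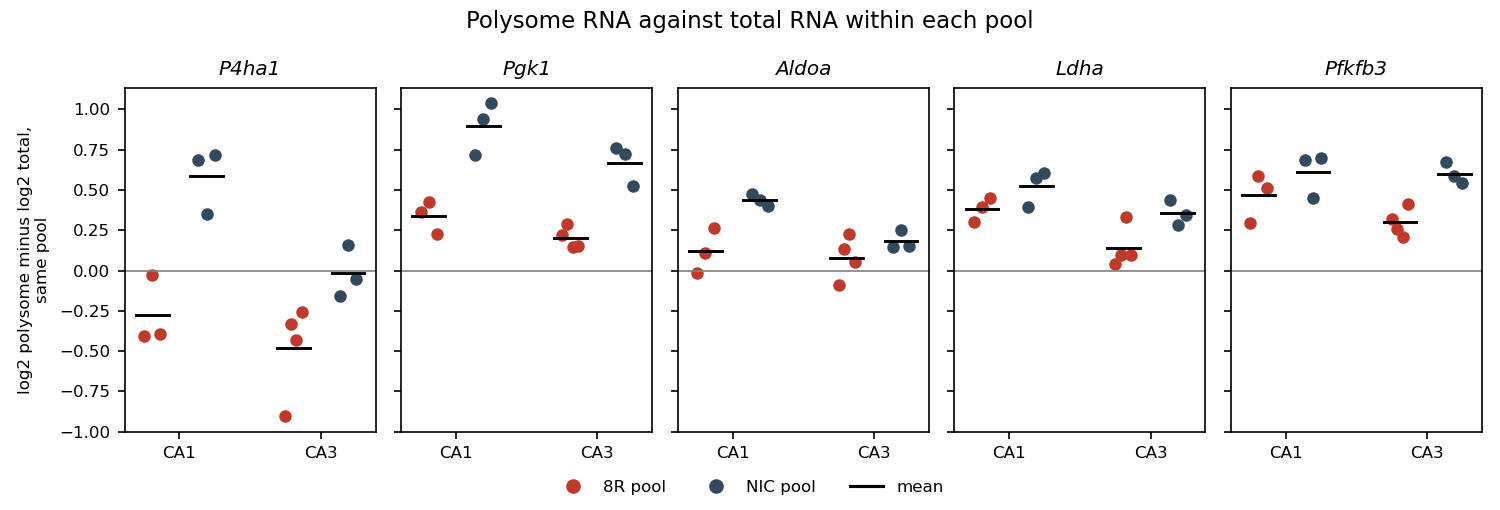
Log2 intensity of polysome RNA minus that of total RNA in the same pool (y axis), for 5 genes in CA1 and CA3, with 8R pools in red left of NIC pools in blue and the mean as a bar. P4ha1, Pgk1 and Aldoa in CA1 and P4ha1, Pgk1 and Pfkfb3 in CA3 do not overlap between 8R and NIC. P4ha1 lies below 0 in all 8R pools, but 0 is no fixed reference, as the median of all genes was 0.20 log2 in NIC CA1.

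Among controls, none of the 9 genes was called between NIC CA1 and NIC CA3 in total RNA, against 3.47% of all genes. With so small a share over all genes, the lack of a call is not particular to these 9. At an unadjusted p under 0.05 it was Aldoa alone, against 13% of all genes, with a difference of -0.25 ± 0.09 log2 (adjusted p = 0.149). In the fit that leaves out 8R pool 4, which changes only the estimate of the spread here, Aldoa passed (adjusted p = 0.0363). All 5 tested oligodendrocyte markers were higher in NIC CA1 than in NIC CA3 total RNA, with a median of 0.69 log2, and their part was not tested. NIC polysome values of Slc2a1 were 93.7, 105 and 97.7 in NIC CA1, against 57.1, 63.1 and 44.1 in NIC CA3 (0.71 ± 0.12 log2, adjusted p = 0.000127). In the same comparison 3 of 6 astrocyte markers (Gfap 0.71, Aqp4 0.41 and Slc1a2 0.32 log2), all 5 tested oligodendrocyte markers (0.76 to 1.07 log2) and the pericyte marker Rgs5 (0.43 log2) were higher in CA1, and their part was not tested. P4ha1 was also higher in CA1 polysome RNA, by 0.48 ± 0.16 log2 (adjusted p = 0.0258), which makes 2 of 9, against 28.4% of all genes (27.7% higher). The median of all genes was itself shifted by 0.23 log2 in this comparison, and median centring left Slc2a1 called and ended the P4ha1 call (0.24 log2, adjusted p = 0.508). The P4ha1 call was also lost without any 1 of pools 1 and 3 of either region (adjusted p from 0.0522 to 0.114).

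Polysome against total RNA in NIC CA1 gave 5 of the 9 genes higher and none lower, against 44% of all genes (39.4% higher), with a median shift over all genes of 0.20 log2. Pgk1 led (0.90 ± 0.15), followed by Pfkfb3 (0.61 ± 0.09), P4ha1 (0.58 ± 0.16), Ldha (0.53 ± 0.12) and Aldoa (0.44 ± 0.09), with adjusted p from 6.56e-06 to 0.00323. In NIC CA3 3 were higher, Pgk1 (0.67 ± 0.15), Pfkfb3 (0.60 ± 0.09) and Ldha (0.36 ± 0.12), and Slc2a1 was lower (-0.30 ± 0.12, adjusted p = 0.0489), against 38.4% of all genes (21.5% higher and 16.9% lower). Transcripts of 3 glycolytic genes, Pgk1, Pfkfb3 and Ldha, were thus relatively richer in the polysome fraction of both control regions, while quantile normalization ended the calls of Ldha in both regions (adjusted p = 0.33 and 0.219) and of Pfkfb3 in CA1 (0.0744). With the pool block Slc2a1 (0.24, adjusted p = 0.0339) and Hk2 (0.20, 0.0275) were also called in CA1, 7 in all, against 54% of all genes. Under the same block Aldoa (0.18, 0.0262) and Ankrd37 (-0.28, 0.026) were also called in CA3, 6 in all, against 52.8% of all genes. The NIC fractions of 1 pool correlated at 0.04 to 0.22 in CA1 and -0.04 to 0.03 in CA3, below the 0.39 that the block assumes for all arrays. In the fit without 8R pool 4, which changes only the estimate of the spread here, Aldoa (adjusted p = 0.0439) and Ankrd37 (0.0412) passed in NIC CA3 too. In CA3 the Ldha call was lost without polysome pool 2 or 3 or total pool 1 (adjusted p from 0.0513 to 0.0836), and that of Slc2a1 without polysome pool 1 or 3 or total pool 2 or 3 (0.0663 to 0.277). That Slc2a1 call was also lost with a pseudocount of 64, with no filter, after quantile normalization and after median centring (0.0603 to 0.193).

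Other genes of the same pathways were taken from lists chosen with earlier results of these data known. Counts and medians of the lists therefore do not test whether they stand out from all genes. The lists held 83 genes, of which 70 had a probe set and 63 were tested. Of these 63, 22 rose and 1 fell in CA1 total RNA, 6 rose and 1 fell in CA1 polysome RNA, 15 rose in CA3 total RNA and 2 in CA3 polysome RNA. Over all genes tested 20.1% were called higher and 6.15% lower in CA1 total, 4.87% and 3.46% in CA1 polysome, 14.2% and 1.34% in CA3 total, and 2.38% and 0.275% in CA3 polysome RNA. The median log2 difference of the 63 was 0.22, 0.06, 0.20 and 0.02 in the same order, beside 0.04, 0.01, 0.09 and 0.04 over all genes. Of these 47 calls 22 held under every alternative run: 11 in CA1 total, 3 in CA1 polysome, 7 in CA3 total and 1 in CA3 polysome RNA. Without 8R pool 4 the counts were 30 up and 5 down in CA1 total and 30 up and 3 down in CA3 total RNA, where 37.4% and 34.3% of all genes were then called. The CA1 total count was 15 without NIC pool 2, the CA3 total count 9 without NIC pool 2, and the CA1 polysome count 12 without 8R pool 3 and 4 without 8R pool 4.

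Of 10 genes of oxygen sensing, 5 rose in CA1 total RNA and 2 in CA3 total RNA, where 20.1% and 14.2% of all genes did. Vhl, whose product marks HIF alpha subunits for destruction, rose by 0.65 ± 0.11 log2 in CA1 and 0.66 ± 0.11 in CA3 total RNA (adjusted p = 3.02e-05 and 9.81e-05). Hif1an, which encodes the hydroxylase that blocks HIF activity, rose in both as well (0.37 and 0.34 log2, adjusted p = 0.0111 and 0.0302). Those 2 Hif1an calls held under 18 and 12 of 20 alternatives. Hif1a itself rose in CA1 total RNA (0.31 ± 0.10, adjusted p = 0.0219), a call held under 15 of 20 alternatives. It was at -0.059 log2 in CA1 polysome RNA (adjusted p = 0.808). Epas1, which encodes HIF-2 alpha, rose in CA1 total and in both polysome RNAs (0.25, 0.39 and 0.33 log2, adjusted p = 0.0438, 0.0141 and 0.0498). The Epas1 calls held under 10 of 20, 16 of 19 and 6 of 20 alternatives, and that in CA3 polysome RNA was lost without any 1 of its 7 arrays (highest adjusted p = 0.249).

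Of 15 tested other hypoxia targets, 6 rose in CA1 total RNA and 5 in CA3 total RNA, against 20.1% and 14.2% of all genes. The secreted glycoprotein gene Stc2 rose most, by 1.19 ± 0.17 log2 in CA1 total and 1.37 ± 0.18 in CA1 polysome RNA (adjusted p = 4.93e-06 and 1.42e-05), beside 0.46 ± 0.17 in CA3 total RNA (adjusted p = 0.0642). The histone demethylase gene Kdm3a rose by 0.84 and 0.45 log2 in CA1 total and polysome RNA and by 0.61 in CA3 total RNA. Ddit4, an inhibitor of mTORC1 signalling, rose by 0.82 log2 in CA1 and 0.72 in CA3 total RNA, and the transferrin receptor gene Tfrc by 0.55 and 0.46. Of the same list 1 gene fell, the mitophagy receptor gene Bnip3l in CA1 polysome RNA (-0.53 log2, adjusted p = 0.0305), a call held under 13 of 19 alternatives and lost without 8R pool 4, and named here after its value was seen. Bnip3 had no single-symbol probe set, and Adm, Car9, Plod2 and Epo were too dim to test. Of 6 tested VEGF receptors and other VEGF ligands only Nrp2, a co-receptor, rose, in CA3 total RNA (0.36 ± 0.11, adjusted p = 0.0293), while Vegfa itself rose in 3 of the 4 comparisons. The Nrp2 call held under 13 of 20 alternatives.

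Among 7 genes listed with the transporters of glucose and lactate, the chaperone gene Bsg included, 3 rose in CA1 total RNA and 2 in CA3 total RNA. Over all genes 20.1% and 14.2% did. The lactate transporter gene Slc16a1 (MCT1) rose by 0.68 ± 0.13 and 0.51 ± 0.13 log2 (adjusted p = 0.000175 and 0.00741), and Bsg, which encodes its chaperone basigin, by 0.35 and 0.55 (0.0478 and 0.00509). The Bsg call in CA1 total RNA held under only 8 of 20 alternatives, that in CA3 under all 20. In CA1 polysome RNA Bsg was at -0.32 log2 (adjusted p = 0.162). The neuronal glucose transporter gene Slc2a3 (GLUT3) rose in CA1 total RNA (0.41 ± 0.13, adjusted p = 0.0189), a call held under 16 of 20 alternatives. Of 9 tested other glycolytic enzymes 2 rose in both regions' total RNA: Aldoc, the aldolase of astrocytes, by 0.33 and 0.36 log2, and Ldhb, the other lactate dehydrogenase subunit, by 0.28 and 0.29. That share is near the 20.1% of all genes higher in CA1 and the 14.2% in CA3. In CA1 and CA3 the Aldoc calls held under 17 and 15 of 20 alternatives, and the Ldhb calls under 18 and 17. Ldhb and Ldha thus moved in opposite directions in CA1 total RNA, while in CA1 polysome RNA Ldhb was at 0.15 ± 0.09 (adjusted p = 0.321). Gapdh, Eno1, Pkm, Tpi1 and Pgam1 had no single-symbol probe set.

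Of 10 tested regulators of glycolysis and pyruvate, 3 rose and 1 fell in CA1 total RNA, close to the 20.1% and 6.15% of all genes. Mpc1, a subunit of the mitochondrial pyruvate carrier, rose by 0.51 ± 0.15 and 0.48 ± 0.15 log2 in CA1 and CA3 (adjusted p = 0.0138 and 0.0341), and Tigar, which lowers fructose 2,6-bisphosphate, by 0.47 ± 0.14 in CA1 (0.00975). The Mpc1 calls in CA1 and CA3 held under 18 and 14 of 20 alternatives, and the Tigar call under 18. Of the pyruvate dehydrogenase kinase genes, Pdk2 fell in CA1 total RNA (-0.56 ± 0.10, adjusted p = 7.45e-05), where Pdk4 was at 0.28 (0.146). Pdk4 rose in CA1 polysome RNA (0.76 ± 0.15, adjusted p = 0.00164), where Pdk2 was at -0.25 (0.132). Of 6 tested genes of glycogen metabolism 3 rose in CA1 total RNA, against 20.1% of all genes. Pygm, a glycogen phosphorylase, rose in all 4 comparisons, by 0.34, 0.53, 0.51 and 0.50 log2 in CA1 total, CA1 polysome, CA3 total and CA3 polysome RNA (adjusted p from 0.00021 to 0.00461). Ugp2, which makes UDP-glucose, rose by 0.60 and 0.45 log2 in CA1 and CA3 total RNA, and Pgm1 by 0.46 in CA1 total RNA. The Ugp2 call in CA3 held under 16 of 20 alternatives.

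**Figure D4:**
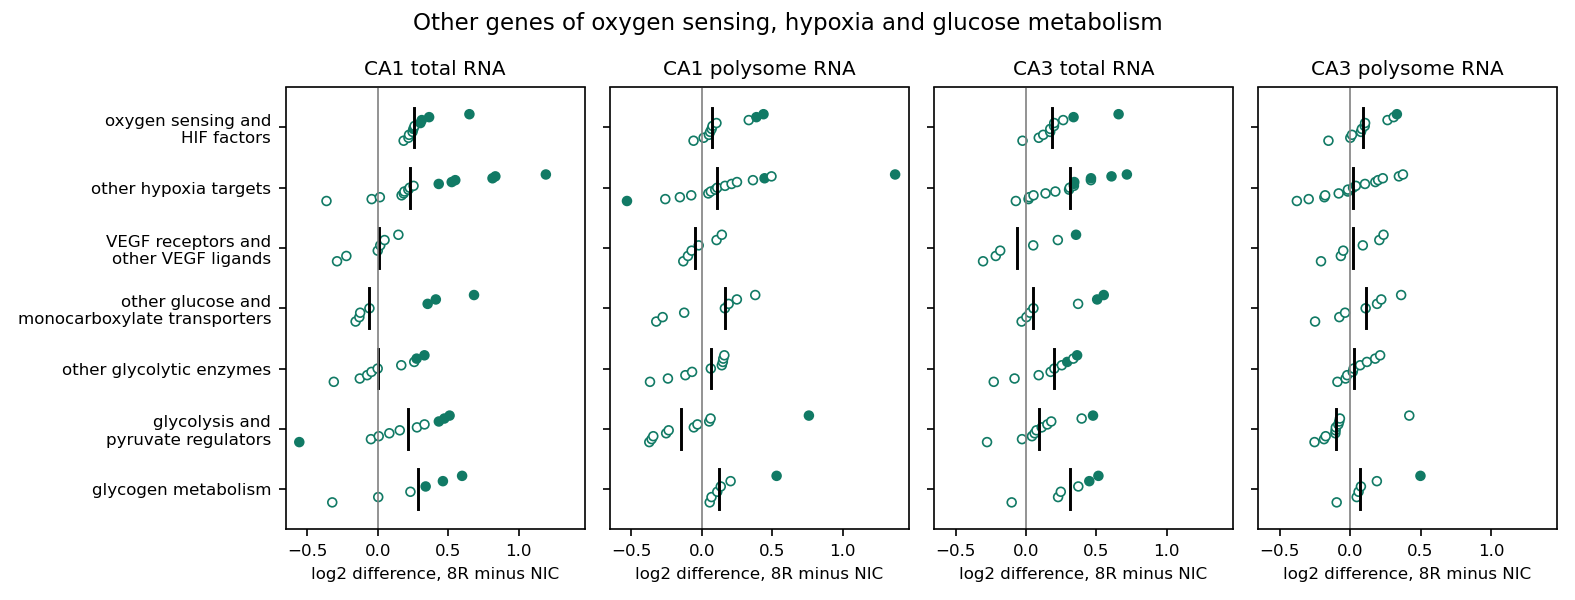
Log2 difference of 8R minus NIC (x axis) for 63 tested genes in 7 lists (rows), in 4 panels by region and RNA fraction. Each circle is a gene, filled where the adjusted p was under 0.05, and the black bar is the list's median. Most filled circles lie right of 0 in the 2 total RNA panels, 22 of 23 in CA1 and 15 of 15 in CA3.

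Some genes followed P4ha1, Vegfa or Ldha closely over the 27 arrays, which fall in 8 groups and share pools between fractions. By Pearson's r of log2 values, the 5 most like P4ha1 were Agpat4 (0.953), Vegfa (0.946), Glce (0.944), Coq10b (0.943) and Ociad2 (0.941). The 5 most like Vegfa were Slc3a2 (0.959), Ptgs2 (0.952), P4ha1 (0.946), Timp1 (0.944) and Inhba (0.941). For Ldha they were Tubb3 (0.917), Mink1 (0.916), Sgta (0.907), Klc2 (0.904) and Wdr7 (0.903). P4ha1 and Vegfa were each among the 5 genes most like the other. Ldha, which fell in CA1 where they rose, shared no gene with either. Because r was taken over 8R and NIC arrays together, it carries the changes given above and adds no separate support.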

How the data were processed

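Deposited values were linear intensities, 1 per probe set and array, which the authors made with PLIER in Affymetrix Expression Console, per the submitters' processing notes. The sources used here do not give versions, background correction or scaling between arrays. The number of arrays, 3 or 4 a group, limits the precision.

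Of 36685 probe sets, 18511 carried 1 gene symbol, 575 several and 17599 none; 18394 matched a current record and 0 symbols changed. The brightest was kept per gene. A pseudocount of 16 was added before log2 was taken, so folds refer to log2(intensity + 16) and come out too small for dim genes. Genes with a mean under the 30th percentile (log2 5.39) were left out. One limma 3.58.1 fit (R 4.3.3) of all 27 arrays with 8 group means and an intensity trend gave 13 two-sided comparisons, each adjusted by Benjamini-Hochberg over 12716 genes and called under 0.05. Every adjusted p is from limma. Replicates are separate pools; CA1 and CA3 may come from the same rats and were treated as independent in the fit.

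Total and polysome RNA of a pool are portions of 1 supernatant per the series' design text, and the number in the sample descriptions was taken as the pool. Deviations from group means of the 2 fractions correlated at 0.28 to 0.77 in 8R, 0.04 to 0.22 in NIC CA1 and -0.04 to 0.03 in NIC CA3. The pool block used duplicateCorrelation (0.39).

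The genes and lists were chosen with earlier results of these data known. Pathway genes named are up to 4 a list with the largest called changes. Alternatives were other pseudocounts, filters, scalings, weights, blocks, leaving out each array, and leaving out 8R pool 4. The test was checked on simulated data.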

Additional observations from a re-analysis of the deposited data

Results flagged for a closer look

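Pgk1 in 8R CA3 total RNA had 1 array far from the others: pool 4 was at 577, against 743, 751 and 759 in pools 2, 1 and 3, and the gap was 0.92 of the group's range on the log2 scale. Among 27 sets of 4 arrays examined this was the only one past the critical value of Dixon's test at the 95% level, and chance gives about 1 in 20.

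The change of P4ha1 in CA1 differed between fractions by the test of the difference itself, at -0.76 log2 (polysome change minus total change, adjusted p = 0.0424). The call was lost in 13 of 26 alternatives.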

How the results depend on the processing

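Counts of the 9 genes called that moved were as follows. In CA3 polysome RNA (1 called, Slc2a1) the count was 2 with a pseudocount of 1, with array weights and with a pool block across regions, and 0 with a pseudocount of 64, quantile normalization, median centring or the 2 groups alone. For the CA1 difference between fractions (1 called, P4ha1) it was 0 with a pseudocount of 64, no filter, quantile normalization or the groups alone, 3 with array weights, and 2 without 8R pool 4. For the CA3 difference (0 called) it was 3 with array weights and 2 without pool 4. Between NIC regions in total RNA (0 called) it was 1 with quantile normalization, array weights, the groups alone or without pool 4, and in polysome RNA (2 called) 1 with a pseudocount of 64, quantile normalization or median centring. For NIC CA3 polysome against total RNA (4 called) it was 2 after quantile normalization.

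With the replicate block of pool within region, the fraction differences gave 3 called in CA1 and 4 in CA3, and with pool number across regions 2 and 1. The block within region left 1 pathway gene called in CA3 polysome RNA, as did that across regions, and over all genes it gave 2642 (against 486) in CA1 and 2185 (against 21) in CA3. It changed no other call of the 9 genes except those given for NIC polysome against total RNA.

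Pathway counts moved in CA1 total RNA (23) to 35 without pool 4; in CA1 polysome RNA (7) to 13 with array weights and 3 with the groups alone; and in CA3 total RNA (15) to 9 with median centring, 34 with array weights and 33 without pool 4. In CA3 polysome RNA (2) they were 1 with a pseudocount of 64, a filter at the 50th percentile, median centring, no variance trend or the groups alone, 4 with array weights and 5 without pool 4.

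Leaving out 1 array at a time gave 5 to 6 called genes in CA1 total, 3 to 4 in CA1 polysome, 3 to 4 in CA3 total and 0 to 3 in CA3 polysome RNA. It gave 0 to 2 for the fraction difference in CA1, 0 to 0 in CA3, and 0 to 0 for the region differences and their difference. It gave 0 to 0 and 1 to 2 between NIC regions in total and polysome RNA, and 5 to 6 and 2 to 3 for NIC polysome against total RNA in CA1 and CA3. Pathway counts were 15 to 24, 4 to 12, 9 to 22 and 1 to 3 in the 4 comparisons of 8R with NIC.

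Signs turned for Hk2 after quantile normalization (-0.0718 in CA1 total and -0.0708 in CA3 total RNA, and -0.048 for NIC CA1 polysome against total RNA), for Aldoa in CA3 polysome RNA after median centring (-0.0369), and for Pgk1 in CA3 polysome RNA with array weights (0.0165), without pool 4 (0.0735) and within a range of -0.0913 to 0.0735 leaving out single arrays. The P4ha1 fraction difference in CA1 was past the threshold in 13 of 26 alternatives (adjusted p from 0.00178 to 0.106). Between NIC polysome RNAs of CA1 and CA3, 3609 genes were called (3516 higher), against 489 (301 higher) after median centring and 581 (342 higher) after quantile normalization. Except where stated, the cause was not tested.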
